A study of Drosophila melanogaster with 2 samples.

Results

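Cell death in the fly embryo is set off and held back by a small group of genes, and 8 of them were examined here for binding of the transcription factor Gcm2. They are the antagonists of inhibitor of apoptosis proteins (IAPs) hid, grim, rpr (reaper) and skl (sickle), the IAP Diap1, the initiator caspase Dronc, its adaptor Dark and the effector caspase Drice. The genes were taken by name, 8 of 13945 protein-coding genes, and a region was assigned to a gene when its summit, the position of its strongest signal, lay in the gene body or within 5 kb of it. By this rule 55 of 30000 candidate regions and 6 of 2177 retained regions belonged to the 8 genes. Binding was measured by ChIP-seq with an anti-GFP antibody in embryos of both sexes, 0 to 24 h old, from 1 transgenic fly line that stably expresses gcm2 fused to GFP at the C terminus. There were 2 libraries, numbered biological replicates 2 and 3, made from separate samples of that line. The labels do not say what drives the transgene or whether the line keeps its own gcm2, and no control library was analysed here.

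Gcm2 is the paralog of Gcm, the factor that sets glial fate and takes part in blood cell development in the fly, and dying cells are cleared by both of those cell types. In the pathway, Diap1 restrains the caspases, and the antagonists Hid, Grim, Reaper and Sickle bind Diap1 and lift that restraint. Dronc, the initiator caspase, is then assembled on Dark, the fly counterpart of Apaf-1, and cleaves effector caspases such as Drice. The genes hid, grim, rpr and skl lie in this order on the left arm of chromosome 3 in what is called the reaper-hid cluster. They are not direct neighbours throughout: CG7320, CheA75a, CG5103 and CG13700, all protein-coding, lie between hid and grim. Enhancers between hid, grim, rpr and skl are known to drive the transcription of these death genes in particular cells.

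The regions that the results turn on are shown first, each as 201 bases centred on the summit, from the plus strand of the RefSeq Release 6 sequence (dm6). The first is the region upstream of hid (3L:18185868-18186068), the second the intron region of Diap1 (3L:16046135-16046335) and the third the strongest region of the reaper-hid cluster, between hid and grim (3L:18281333-18281533); in these the summit base is in capitals. The last pair (3L:18287440-18287640 and 3L:18342467-18342667) are weak candidates, shown because they alone of the cluster's candidates hold a Gcm octamer, in capitals; the second octamer is on the minus strand.
hid upstream: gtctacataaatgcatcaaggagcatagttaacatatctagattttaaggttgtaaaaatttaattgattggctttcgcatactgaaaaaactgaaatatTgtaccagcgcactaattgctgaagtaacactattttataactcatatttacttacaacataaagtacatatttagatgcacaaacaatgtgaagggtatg
Diap1 intron: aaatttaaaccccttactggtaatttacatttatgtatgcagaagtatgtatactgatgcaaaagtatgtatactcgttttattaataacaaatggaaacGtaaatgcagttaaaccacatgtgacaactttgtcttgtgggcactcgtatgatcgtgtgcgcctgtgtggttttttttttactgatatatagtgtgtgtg
between hid and grim: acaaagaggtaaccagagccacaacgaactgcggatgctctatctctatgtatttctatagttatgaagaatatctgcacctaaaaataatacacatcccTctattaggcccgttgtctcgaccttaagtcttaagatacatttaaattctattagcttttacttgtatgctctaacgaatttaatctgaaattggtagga
octamer between hid and grim: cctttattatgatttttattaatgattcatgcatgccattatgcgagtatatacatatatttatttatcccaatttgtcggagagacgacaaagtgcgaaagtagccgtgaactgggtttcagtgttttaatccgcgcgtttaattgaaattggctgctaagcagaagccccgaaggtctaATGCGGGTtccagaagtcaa
octamer between grim and rpr: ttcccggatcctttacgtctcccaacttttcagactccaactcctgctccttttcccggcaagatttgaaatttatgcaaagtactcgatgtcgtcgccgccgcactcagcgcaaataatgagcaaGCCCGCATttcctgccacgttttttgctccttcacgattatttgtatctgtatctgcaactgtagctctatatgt

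The regions came from 4 lists. Each replicate had its own list of 30000 candidates, a pooled list of 30000 candidates came from both replicates, and the list kept by the irreproducible discovery rate (IDR), which asks how alike regions rank in both replicates, held 2177. The authors named the candidate lists peaks and background as input for IDR, so a candidate can be background. A deposited q-value at or below 0.05 was given to 6821 of the 30000 pooled candidates (22.7%). The signal of a region is the authors' enrichment value, given without a replicate error, and regions were ranked by it within each list, with rank 1 the strongest. Pooled signals lay between 13.6 and 1029 with a median of 20.5, and the IDR list was the 2177 strongest of them, down to a signal of 57.8. A place on the IDR list thus went with pooled signal, and some of its regions ranked outside the 2177 strongest of a replicate. Medians were 11.5 in replicate 2 and 11.2 in replicate 3, so pooled signals are not compared with those of a replicate. Signals of both replicates are set side by side as given. Read depth is unknown. In chromatin of whole embryos, strong binding in few cells and weak binding in many cells cannot be told apart.

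Of the 8 genes, hid, Diap1, Dark and Drice had a region of the IDR list and rpr, grim, skl and Dronc had none. That is 4 of 8, against 30.4% of all protein-coding genes under the same rule. Long genes have larger windows: 3 of 3 of these genes longer than 5 kb had an IDR region, against 42.2% of all such genes, and 1 of 5 of the shorter ones did, against 26.5%. The 2177 strongest regions of replicate 2 alone reached hid, Diap1 and Drice, 3 of 8, against 30.4% of all genes. Those of replicate 3 alone reached hid, Diap1, Dark and Drice, 4 of 8, against 29.8%. A pooled candidate of any strength was present at 7 of 8 genes, against 86.3% of all genes, a share near that of all genes. Only at hid and Diap1 was the gene itself the one with the nearest protein-coding transcription start site (TSS) to an IDR summit. The plot of ranks by list shows the strongest region of each gene, whichever TSS is nearest to it.

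**Figure D1:**
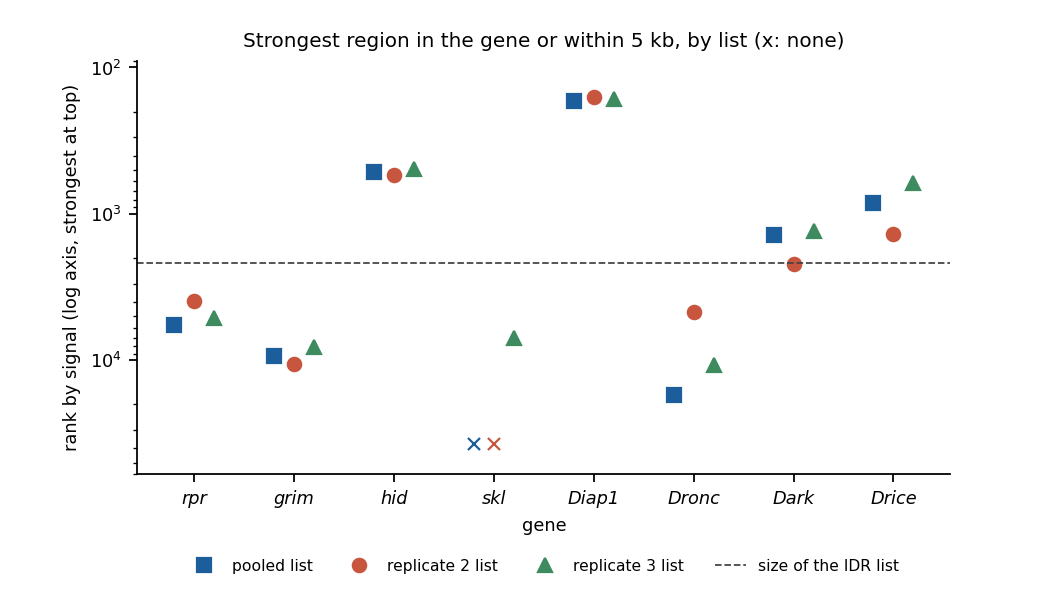
Rank by signal of the strongest region in each gene or within 5 kb (log axis, strongest at the top) in the pooled list (squares), the replicate 2 list (circles) and the replicate 3 list (triangles); a cross marks a list with no region. Diap1 (pooled rank 170), hid (517) and Drice (845) lie above the dashed line at rank 2177, the size of the IDR list, in all 3 lists. Dark (1401) lies above it in the pooled and replicate 3 lists, and rpr, grim, skl and Dronc lie below it or have no region.

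The antagonist hid (3L:18167745-18185641, minus strand), a gene whose product binds Diap1, had its strongest region just upstream of its single annotated TSS. The region (3L:18185736-18186199) had a signal of 120.3 and rank 517 in the pooled list, and its summit, 18185968, lay 327 bp upstream of the TSS. Its signal was 62.0 in replicate 2 (rank 541) and 59.3 in replicate 3 (rank 497), with summits 3 bp and 13 bp from the pooled one, so both libraries placed it alike in rank and position. The gene body held 7 further pooled candidates and none of the IDR list. The strongest of these, in a coding exon 606 bp downstream of the TSS, had a signal of 38.3, rank 4634 and a deposited q-value of 0.00766. Signals at the same place were 19.9 in replicate 2 and 18.3 in replicate 3. A candidate in another coding exon, 12468 bp into the gene, had a signal of 37.5 and rank 4816, with 17.1 in replicate 2 and 23.2 in replicate 3. An intron candidate 5600 bp into the gene had a signal of 34.9 and rank 5459, and the other 4 had ranks between 14541 and 27381.

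The antagonist rpr (3L:18397535-18398435, minus strand), which gave the cluster its name, had 5 pooled candidates and none of the IDR list. Its strongest lay 4875 bp upstream of the TSS, close to the edge of the window, with a signal of 34.0, rank 5753 and a q-value of 0.0265. It was found in both libraries, with a signal of 23.0 (rank 3954) in replicate 2 and 18.6 (rank 5264) in replicate 3. A weaker candidate sat 5 bp inside the annotated start of rpr, with a signal of 25.6 and rank 9823. Replicate 3 had a region there with a signal of 18.8 (rank 5144), whereas the nearest summit of replicate 2 was 1274 bp away, so the start of rpr was listed in 1 library. A candidate 1020 bp downstream of the gene was found in both libraries, with a pooled signal of 23.9 (rank 11189). The other pair of candidates, 1289 bp and 4071 bp upstream, ranked 22896 and 25189.

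The antagonist grim (3L:18302719-18304417, minus strand) had 3 pooled candidates, all weak and none in the gene. The strongest, 3020 bp upstream of the TSS, had a signal of 26.4 and rank 9273, with 15.2 in replicate 3 (rank 8087). In replicate 2 the nearest summit was 196 bp away, in a region that also covers the place, with a signal of 10.9 (rank 16603). A candidate 627 bp downstream of the gene had rank 19619 and was matched in replicate 2 alone, and one 2551 bp downstream, in a coding exon of CG13700, had rank 29249. In replicate 2 alone, a region in the coding exon of grim had rank 29604, close to the end of that list. The antagonist skl (3L:18438561-18439942, minus strand) had no pooled candidate and none in replicate 2. Replicate 3 listed 1 region in its coding exon, 291 bp from the TSS, with a signal of 16.2 and rank 7039. The pooled candidate nearest to skl lay 7921 bp outside the gene, with a signal of 18.2 and rank 18758.

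The 4 genes take up little of the reaper-hid cluster: 17.9 kb for hid, 1.70 kb for grim, 0.901 kb for rpr and 1.38 kb for skl. No IDR summit lay in these gene bodies, but most of the cluster is sequence between genes, so this is not read as a pattern. From 5 kb before hid to 5 kb beyond skl, 282 kb in all, there were 66 pooled candidates, or 2.34 per 10 kb, against 2.24 per 10 kb over the 6 chromosome arms. Of these, 6 were on the IDR list, which is 9.09% (Wilson 95% interval 4.23 to 18.4%), against 7.26% of all pooled candidates, or 0.213 per 10 kb against 0.163. The cluster as a whole was therefore close to the genome in both counts. Within it the regions were spread unevenly. The 117 kb between hid and grim held 41 pooled candidates (3.50 per 10 kb) and 5 of the 6 IDR regions, or 0.427 per 10 kb. These 5 include the promoter region 327 bp upstream of the hid TSS, described above as the hid region. The 93.1 kb between grim and rpr held 13 (1.40 per 10 kb) and 1 IDR region, and the 40.1 kb between rpr and skl held 4 (0.997 per 10 kb) and none. Each library gave the same order: replicate 2 had 41, 16 and 6 candidates in those intervals and replicate 3 had 31, 14 and 5.

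**Figure D2:**
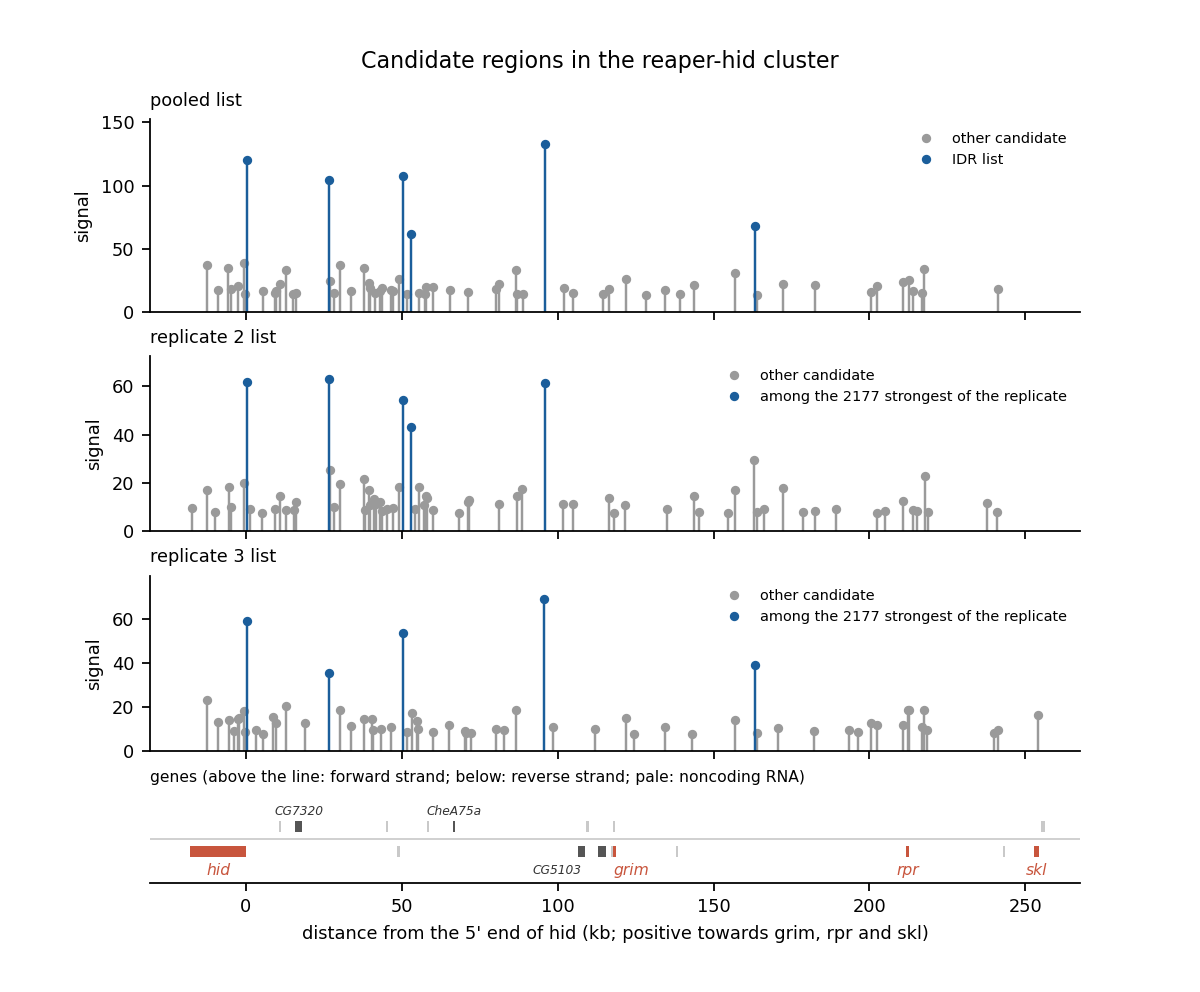
Signal of each candidate region in the reaper-hid cluster against its distance from the 5' end of hid (kb) in the pooled, replicate 2 and replicate 3 lists, with the annotated genes at the bottom. Blue marks the IDR list in the top panel and the 2177 strongest regions of the replicate in the others. Of the 6 blue pooled regions, 5 lie between hid and grim, among them the region 327 bp upstream of hid. Another 1 lies between grim and rpr, and none at rpr or skl.

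The strongest region of the cluster (3L:18281201-18281664), whose sequence is the third one above, lay 95.8 kb upstream of the 5' end of hid and on the 3' side of grim, 23.0 kb from the 5' end of that gene. It had a pooled signal of 132.7 and rank 412, with 61.6 in replicate 2 (rank 553) and 69.3 in replicate 3 (rank 331). It thus outranked the region upstream of hid, in the pooled list and in replicate 3, and came just after it in replicate 2. It was intergenic, and the nearest protein-coding TSS was that of CG5103, 12.8 kb away. Another 3 IDR regions lay between hid and grim. The one at 18212384, 26.7 kb upstream of the 5' end of hid, had a signal of 105 (rank 683), with 63.0 in replicate 2 (rank 529) and 35.4 in replicate 3 (rank 1454). The one at 18235987, 50.3 kb upstream, had a signal of 108 (rank 638), with 54.3 in replicate 2 (rank 705) and 53.8 in replicate 3 (rank 606). The nearest coding TSS was that of CG7320 for the first, at 10.9 kb, and that of CheA75a for the second, at 16.1 kb, so neither was a promoter region.

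The remaining pair were each among the 2177 strongest of 1 library alone. The region at 18238750, 53.1 kb upstream of hid, had a pooled signal of 62.0 (rank 1868), with 43.1 in replicate 2 (rank 1118) and 17.2 in replicate 3 (rank 6237), far outside the 2177 strongest of that library. The region at 18348865, between grim and rpr, had a pooled signal of 68.0 (rank 1584), with 29.7 in replicate 2 (rank 2413) and 39.1 in replicate 3 (rank 1163). It lay 44.4 kb upstream of the 5' end of grim and 49.6 kb from that of rpr, with no protein-coding TSS nearer than that of grim. Leaving these aside, 4 IDR regions of the cluster were among the 2177 strongest of both libraries: those at hid and at 26.7, 50.3 and 95.8 kb. The plot of replicate signals sets both libraries side by side for these regions and those at the other genes.

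**Figure D3:**
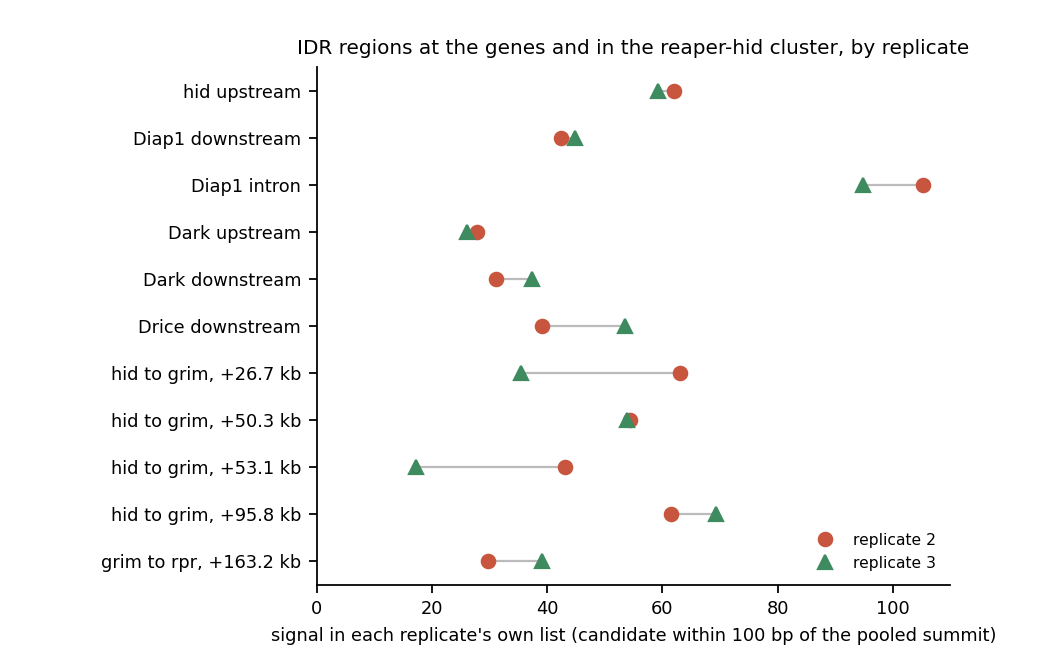
Signal in replicate 2 (circles) and replicate 3 (triangles), each from its own list, at the 6 IDR regions of the 8 genes and at the other 5 IDR regions of the reaper-hid cluster; distances are in kb from the 5' end of hid. The Diap1 intron is highest in both libraries (105 and 94.8), and the region at 53.1 kb has 43.1 in replicate 2 and 17.2 in replicate 3.

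The inhibitor Diap1 (3L:16038410-16051034, minus strand), the ubiquitin ligase that holds caspases in check, carried the highest signal of the 8 genes. The region (3L:16046003-16046466) lay in an intron, with a pooled signal of 189 and rank 170. In replicate 2 it had a signal of 105 (rank 159) and in replicate 3 of 94.8 (rank 164). Both libraries thus gave it nearly the same rank, with summits 80 bp and 4 bp from the pooled one. Diap1 has 5 annotated start sites, and the summit, 16046235, lay 611 bp downstream of the nearest of them and 4799 bp from the 5' end of the gene. The second IDR region at Diap1 (3L:16036996-16037459) was intergenic, 1182 bp beyond the 3' end of the gene, with a signal of 80.0 and rank 1168. It had a signal of 42.4 in replicate 2 (rank 1158) and 44.9 in replicate 3 (rank 907), and the nearest coding TSS was that of CG5895, 1550 bp away.

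The other 12 pooled candidates at Diap1 were all weaker than these. An intron candidate 2678 bp from the 5' end had a signal of 42.8 (rank 3801), with 23.1 in replicate 2 and 19.2 in replicate 3. One 767 bp from the 5' end and 404 bp from a start site had a signal of 41.04 (rank 4100), with 19.9 in replicate 3 (rank 4531). In replicate 2 the summit within 100 bp had a signal of 10.5 (rank 17645), and a second region that also covers the place, with its summit at 16050107, had 18.8 (rank 5817). One 883 bp upstream of the gene had a signal of 41.4 (rank 4056) but sat 42 bp from the TSS of Mbs, the divergent neighbour that encodes the myosin binding subunit of myosin phosphatase. A further one, in an intron of Mbs, had a signal of 36.1 (rank 5126) and was matched in replicate 2 alone. None of the candidates near the first start site of Diap1 was on the IDR list.

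**Figure D4:**
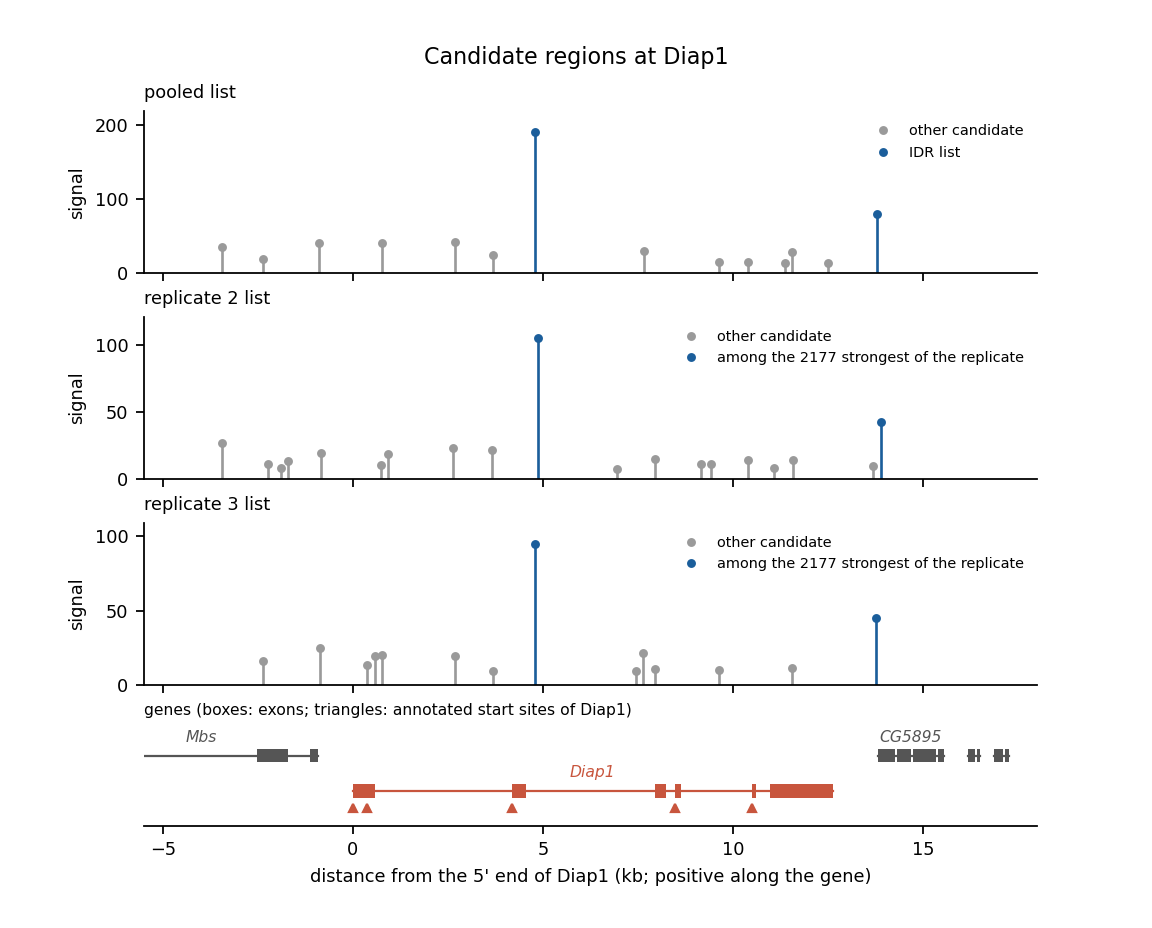
Signal of each candidate region at Diap1 against its distance from the 5' end of the gene (kb, positive along the gene) in the pooled, replicate 2 and replicate 3 lists, with exons and the 5 annotated start sites (triangles) at the bottom. The intron region at 4799 bp stands above all others in each panel (189, 105 and 94.8), followed by the region 1182 bp beyond the 3' end (80.0, 42.4 and 44.9).

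The initiator caspase Dronc (3L:9968479-9971002, plus strand) had 3 pooled candidates, all of rank 17301 or weaker. One in its coding exon, 587 bp from the TSS, had a signal of 14.5 (rank 27334). The others lay downstream at the starts of other genes. One was 30 bp from the shared start of CG42455 and vnc, with a signal of 16.9 (rank 21480), and one was 137 bp from the TSS of dpr6, with a signal of 19.04 (rank 17301). In replicate 2 the region at CG42455 and vnc had a signal of 21.1 and rank 4677. Replicate 3 had no summit within 100 bp of the pooled one, its nearest being 514 bp away. That replicate 3 region had a signal of 13.3 (rank 10720) and lay 100 bp from a start of CG42455 and vnc. Its adaptor Dark (2R:17020027-17026703, plus strand) had 16 pooled candidates, the most of the 8 genes, and 2 of the IDR list. One (2R:17026634-17027097) lay 163 bp beyond the 3' end of Dark, with a pooled signal of 72.6 and rank 1401, with 31.1 in replicate 2 (rank 2199) and 37.3 in replicate 3 (rank 1299). The other (2R:17015552-17016015) lay 4243 bp upstream, with a signal of 60.5 and rank 1971, with 27.7 in replicate 2 (rank 2729) and 26.1 in replicate 3 (rank 2644).

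Both IDR regions near Dark were closer to other genes than to its own start. The downstream one was 324 bp from the TSS of the next gene downstream, inside the antisense RNA CR44390, and the upstream one was 110 bp from the TSS of Ehbp1. A second summit downstream of Dark, 118 bp from the TSS of that downstream neighbour, just missed the IDR list, with a pooled signal of 53.4 and rank 2521. At the start of Dark itself a candidate 26 bp inside the gene had a signal of 18.7 and rank 17833, with 17.0 in replicate 2 (rank 7081) and no match in replicate 3. In replicate 2 alone none of the regions near Dark was among the 2177 strongest, the best being rank 2199.

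The effector caspase Drice (3R:29799658-29801584, plus strand) had 6 pooled candidates and 1 of the IDR list. That region (3R:29802849-29803312) had a signal of 93.3 and rank 845, with 39.1 in replicate 2 (rank 1365) and 53.4 in replicate 3 (rank 616). It lay 1497 bp beyond the 3' end of Drice and 115 bp from the TSS of CG7789, so here too the nearest start was that of a neighbour. At its own start, 113 bp upstream of the TSS, Drice had a candidate with a pooled signal of 25.9 (rank 9602). That candidate had a signal of 8.32 in replicate 2 (rank 26067) and 19.2 in replicate 3 (rank 4929), and so ranked much higher in replicate 3.

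Of the 55 candidates at the 8 genes, 6 were on the IDR list, or 10.9% (Wilson 95% interval 5.10 to 21.8%), against 7.26% of all pooled candidates. A deposited q-value at or below 0.05 was given to 16 of them (29.1%, interval 18.8 to 42.1%), against 22.7% of all. Both replicates had a summit within 100 bp at 21 of them (38.2%, interval 26.5 to 51.4%), against 33.9% of all, and at all 6 of the IDR regions, against 93.9% of IDR regions in general. In the first 3 of these counts the interval for the 8 genes holds the share over all candidates. The intervals take the 55 candidates as independent, although 16 lay at Dark and 14 at Diap1 and some of these overlap, so they may be too narrow. Of the 6 IDR regions, 4 were within 500 bp of a TSS, namely those of hid, the gene downstream of Dark, Ehbp1 and CG7789, 1 was intronic and 1 intergenic. The other 49 comprised 18 in coding exons, 12 in introns, 11 near a TSS, 6 intergenic and 2 in 3' untranslated regions. The shares of these classes over all IDR regions or all candidates are not given here. The classes therefore describe these regions and show no trait of the 8 genes. At the edge of the window, the outermost candidate still counted lay 4992 bp from Dark (signal 29.0), 4875 bp from rpr (34.0) and 4649 bp from Drice (17.5), to name the 3 genes where it lay farthest out. The nearest ones not counted were 5061 bp from Drice (14.8), 5316 bp from hid (16.9) and 6108 bp from Dark (14.8), none of them on the IDR list.

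The sequence under the summits was searched on both strands within 100 bp for the Gcm octamers ATACGGGC, ATACGGGT, ATGCGGGC and ATGCGGGT. None of the 55 candidates at the 8 genes held one, against 1.54% of all pooled candidates and 0.781% of IDR regions. In the whole cluster 2 of 66 candidates held one (3.03%), both printed above. The first, ATGCGGGT, lay 81 bp from the summit of a candidate with a signal of 18.7 (rank 17812). The second lay 26 bp from the summit of a candidate with a signal of 30.4 (rank 7060). The 6 IDR regions of the cluster held no octamer in this window. The count of 0 among 55, which allows a share of up to 5.45%, says only that those letters were not in those windows.

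Another 5 words were searched in the same windows. GAGAGAG, bound by GAGA factor, was present in 4 of the 55 candidates, against 4.12% of all, and TAATTA, a homeodomain core, in 4, against 10.6% of all. TGANTCA, an AP-1 word, was present in 1, the candidate 4071 bp upstream of rpr, against 4.25% of all. TATCGATA, the DNA replication-related element, and CAGGTAG, bound by Zelda, were present in none, against 1.67% and 1.37% of all. None of the 6 IDR regions at the 8 genes held any of these words. Over all IDR regions the shares were 5.51% for GAGAGAG, 14.2% for TAATTA, 4.23% for TGANTCA, 4.04% for TATCGATA and 1.19% for CAGGTAG, so a count of 0 in 6 regions sets them apart in no way. The GC content of the 6 had a median of 34.8% (28.4 to 45.3%), against a median of 37.3% over all IDR regions, and the 6 IDR regions of the cluster had a median of 33.6% (29.4 to 38.3%).

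Another 38 genes of cell death and clearance were set beside the 8. Of these, 20 had an IDR region in the gene body or within 5 kb, or 52.6%, against 30.4% of all protein-coding genes. By role, these were 4 of 8 caspases and their adaptors, 8 of 10 IAPs and other inhibitors or antagonists, 4 of 11 upstream death signals and 4 of 9 genes of corpse degradation and clearance. Not all of the 20 were reached from each library alone. Decay, Diap2, Det, HtrA2 and Ced-12 had no region among the 2177 strongest of replicate 2, and Bruce had none among those of replicate 3. The rest of the 20 had one in both. At most of them the protein-coding TSS nearest to each IDR summit was that of a neighbour. Cyt-c-p, HtrA2, eff, p53, ced-6 and NimC4, 6 of the 38, were themselves the gene with the nearest protein-coding TSS to such a summit, against 11.7% of all genes. All but 1 of the 38 had a pooled candidate, the exception being Drep1, a member of the family of nuclease inhibitors.

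Among regulators of Diap1, eff, which encodes a ubiquitin-conjugating enzyme acting with it, had its strongest region in an intron. That region had a pooled signal of 174 and rank 209, with 106 in replicate 2 (rank 153) and 71.5 in replicate 3 (rank 312). HtrA2, a mitochondrial protease that can antagonise IAPs, had one 109 bp inside the gene with a signal of 62.5 (rank 1845), with 27.4 in replicate 2 and 33.9 in replicate 3. The peroxiredoxin gene Jafrac2, annotated as Prx4, had a signal of 144 (rank 338) 387 bp from the TSS of scramb2. The gene morgue, whose product promotes loss of Diap1, had 112 (rank 597) 15 bp from the TSS of MFS18. The Diap2, Bruce, Det and Debcl windows held IDR regions with signals between 61.0 and 74.3, each nearest to the TSS of another gene. No IDR region was present at dnr1 or Buffy, whose best ranks were 3432 and 11926.

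The transcription factor gene p53, a trigger of death after DNA damage, had an IDR summit 69 bp upstream of its own start. Its signal was 108 (rank 636), with 61.8 in replicate 2 (rank 544) and 42.5 in replicate 3 (rank 1005). The highest signal near any of these genes, 384 (rank 31), was counted for the ATM kinase gene tefu, but it lay 2676 bp beyond that gene and 128 bp from the TSS of Art3. The window of egr, the TNF ligand, held a region in an intron of egr with a signal of 121 (rank 505), nearest to the TSS of CG2269 at 3347 bp, and that of mei-41, the ATR kinase gene, one with 77.9 (rank 1218), 529 bp from the TSS of CG9981. Xrp1 and Tak1 had none, with best ranks of 2633 and 2860. Among caspases and adaptors, a region with a signal of 197 (rank 158) fell to both cytochrome c genes, Cyt-c-p and Cyt-c-d, and lay 134 bp from the TSS of CG31808. Dredd, the caspase of the Imd immune pathway, and Decay had IDR regions with signals of 75.8 (rank 1282) and 74.6 (rank 1327), 20 bp from the TSS of RpL36 and 1399 bp from that of Gr89a. Dcp-1, an effector caspase like Drice, and Strica had none, with best ranks of 2413 and 2888.

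Of the clearance genes, the adaptor gene ced-6 had an IDR region in an intron 480 bp from its TSS. The signal was 87.9 (rank 945), with 44.3 in replicate 2 and 36.9 in replicate 3. NimC4, a receptor for dying cells also called Simu, had one 197 bp upstream with a signal of 76.1 (rank 1273), with 35.4 in replicate 2 and 39.2 in replicate 3. Both are known to act in glia or macrophages of the embryo. AIF and Ced-12 had IDR regions with signals of 112 (rank 592) and 59.6 (rank 2037), at the starts of Tbcd and ThrRS. The clearance genes Drep4 and crq had none, with best ranks of 3306 and 5449.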

How the data were processed

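Regions came from 4 lists in dm6. The lists of files that the authors deposited beside the samples say that each replicate's candidates were derived from its own alignments with a control file, the pooled ones from both replicates' alignments, and the IDR list from the 3 sets of candidates. The aligner, the caller, their versions and the cut-off of the IDR step are not given here. The signal of each region and its −log10 q-value are the authors' deposited values; both were used to describe, rank and filter regions inside their own list. The lists in the older build were not used. The dm6 summit, region start plus deposited offset, was compared with Ensembl 115 genes on the Release 6 sequence, after checking that all region ends lay within the reference lengths. Coordinates are 1-based. Nearest TSSs are those of protein-coding genes, and a summit within 500 bp of any annotated TSS was classed as a promoter region first. A summit counted as found in a replicate when that replicate's list had one within 100 bp.

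With 1 group of 2 libraries and no control library no test between conditions was possible, so members are given as counts beside all genes or candidates, without p-values. Wilson 95% intervals cover counting error only and take candidates as independent. Read depth is unknown. The genes, lists, motifs and most alternatives were chosen with earlier results of these data known. All 8 genes are named; of the other death genes, those with an IDR summit and the 2 strongest others of each list; and neighbours nearest to, or holding, IDR summits or, at the 8 genes and in the cluster, the 5 strongest candidates; other neighbours were named after their values were seen. The gene downstream of Dark is not named here. Alternatives changed the window, region set, replicate, matching distance and motif window. Functions were checked on simulated data. Python 3.11.15, pandas 2.3.3, numpy 2.4.6, scipy 1.17.1 and matplotlib 3.10.9 were used.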

Additional observations from a re-analysis of the deposited data

How the results depend on the processing

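Counts depended mainly on which summits are assigned to a gene. Of the 8 genes, 4 had an IDR region; this became 1 (Diap1) with the gene body alone, against 7.08% of all genes, and 2 (hid and Diap1) when only the gene with the nearest protein-coding TSS counted, against 11.7% of all genes. The number of other death genes, 20, became 6 with the gene body alone, 9 within 1 kb, against 17.0% of all genes, 6 by nearest TSS, 10 with the 1088 strongest IDR regions, against 17.9% of all genes, and 32 with all pooled candidates at q up to 0.05, against 58.5%. The 55 candidates at the 8 genes became 25 with the gene body alone, 32 within 1 kb, 28 by nearest TSS and 16 at q up to 0.05. In the cluster, q up to 0.05 left 14 of 66 candidates, and all 6 IDR regions are among those 14, an alternative chosen after seeing the data for the IDR count. These shifts follow from the smaller or larger set of summits. The share found in both replicates, 38.2%, was 60.0% for summits within 250 bp, 65.5% for overlapping regions and 93.8% at q up to 0.05. The shares of all candidates under these 3 settings are not given, so the rise is not read as a trait of the 8 genes. The octamer count of 0 became 1 within 200 bp of the summit, a setting for which the share of all candidates is also not given. Of strongest ranks, those of rpr, grim, Dronc and Drice were 9823, 19619, 27334 and 9602 within 1 kb. From 1 replicate's list the IDR-sized count was 3 to 4 of the 8 genes (Dark dropped out without replicate 3, at rank 2199). It was 18 to 21 of the other death genes, not all the same genes in both replicates, and 5 in the cluster. Dronc ranked 4677 without replicate 3 and 10720 without replicate 2. The strongest rank of Drice, 845, was 1365 without replicate 3. No other count or rank moved by over 1.5 times. Unknown read depth limits what can be said of rpr, grim, skl and Dronc: an IDR region was not detected there in these lists.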
